A study of Homo sapiens with 6 samples.

Results

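The genes described here write, erase or read lysine acetylation: 11 histone deacetylases (HDACs), 7 sirtuins, 13 acetyltransferases and coactivators, and 2 bromodomain readers of the BET family. They were chosen by symbol, and each of the 33 symbols matched 1 row among the 27009 gene rows of the table. RNA sequencing compared stable cells labelled Hep3B, a human liver cancer line, and both groups carried a knockout of their own PD-L1. The 3 vector libraries came from knockout cells with an empty construct, and the 3 libraries labelled nPD-L1 came from knockout cells given PD-L1 with a short substitution that was made to place the protein in the nucleus, under a CMV promoter in a lentiviral puromycin vector. No treatment or time course was applied. The study asked which genes change when PD-L1 is enriched in the nucleus. The study calls the sequenced samples of a group independent without saying that they came from separate cultures, so the p-values measure the spread between these libraries, which may be technical in part.

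Acetyltransferases move the acetyl group of acetyl-CoA to lysines of histones and other proteins, which neutralises the charge of the side chain and creates a docking site for bromodomains. Zinc-dependent HDACs remove the group by hydrolysis, mostly inside corepressor complexes, and sirtuins remove it while consuming NAD. In liver cells these enzymes are known to tune gluconeogenic, lipid and cell cycle genes, and PD-L1 itself is known as an acetylated protein whose nuclear entry has been tied to HDAC2 and p300.

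Values are scaled reads, that is, the reads counted on a gene divided by a size factor for the library. Levels of different genes are compared only after division by gene length in kb. A gene was called when its adjusted p was under 0.05 in limma, fitted on log2 of the value plus 1 over 15076 genes with a Benjamini-Hochberg adjustment, and every adjusted p in the report comes from that test unless another is named. Fold changes are on this log2(value + 1) scale, with nPD-L1 over vector positive, and understate the change of genes at low levels.

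Several features of the libraries came before any result. The libraries held between 17427519 and 22253295 reads, recovered from the steps in the deposited values, and the 33 genes took 0.137% to 0.164% of the scaled reads of a library. Vector 2 stood apart from vector 1 and vector 3 by gene length, with a median log2 difference of 0.27 for genes under 2 kb and -0.26 for genes over 10 kb. CD274, which encodes PD-L1, lay at 28.3, 38.4 and 47.8 scaled reads in the vector libraries and at 16.8, 19.2 and 30.9 in the libraries labelled nPD-L1, so its RNA did not run in the direction of the label, and the direction of each comparison below follows the labels. The hepatocyte markers ALB, APOA1, APOA2, APOB, TTR and TF were at 0 to 2.89 scaled reads in every library, AFP and GPC3 matched no row, and FGA, FGB and FGG, the fibrinogen chains, lay between 658 and 3286. Of the markers of other cell types, PTPRC, PECAM1 and VWF stayed at or under 3.03, PDGFRA at or under 9.10 and CD14 at or under 14.3, while COL1A1 lay at 49.9 to 82.8 against 445 to 487. These values go against the label Hep3B in part. Their part in the results below was not tested.

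The sequences before the start sites of 3 genes are printed because they are the starts of HDAC7, the single member that passed the test, of SIRT1, the member with the next lowest p, and of GATAD2B, a corepressor subunit that also rose. Each is the run of 250 bases before the RefSeq start in GRCh38.p14, written 5′ to 3′ on the strand of the gene, and capitals mark matches on either strand to GGGCGG (GC box), to CCAAT, to the E box CACGTG or to TGANTCA (AP-1 site). The HDAC7 run is chr12:47819904-47820153 on the minus strand and lies inside the span that the table gives the gene. The SIRT1 run is chr10:67884406-67884655 on the plus strand. The GATAD2B run is chr1:153922973-153923222 on the minus strand and also lies inside the span given for its gene.
HDAC7: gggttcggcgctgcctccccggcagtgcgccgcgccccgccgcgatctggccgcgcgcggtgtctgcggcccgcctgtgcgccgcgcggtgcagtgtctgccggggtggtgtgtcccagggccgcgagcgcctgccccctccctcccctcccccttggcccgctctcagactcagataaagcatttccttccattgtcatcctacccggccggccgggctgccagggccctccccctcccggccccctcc
SIRT1: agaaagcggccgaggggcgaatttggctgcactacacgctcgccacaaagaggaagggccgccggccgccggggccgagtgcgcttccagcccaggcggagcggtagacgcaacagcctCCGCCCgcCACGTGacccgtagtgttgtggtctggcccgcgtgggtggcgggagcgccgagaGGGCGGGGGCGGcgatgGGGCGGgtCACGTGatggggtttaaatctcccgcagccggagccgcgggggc
GATAD2B: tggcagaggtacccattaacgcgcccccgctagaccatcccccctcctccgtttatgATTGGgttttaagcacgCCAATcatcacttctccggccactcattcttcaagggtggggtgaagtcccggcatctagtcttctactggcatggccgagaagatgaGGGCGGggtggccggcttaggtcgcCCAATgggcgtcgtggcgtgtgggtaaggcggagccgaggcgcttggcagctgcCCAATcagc
No letters of these motifs stood in the HDAC7 run. The SIRT1 run held 4 GC box matches, of which a pair lie end to end, and 2 E box matches, and the GATAD2B run held 1 GC box match and 4 CCAAT matches. RefSeq promoters were found for 28 of the 33 genes, 49 starts in all, and 53.1% of these starts held a GC box against 42.6% of all 35116 promoters of this length. For CCAAT the shares were 24.5% and 32.0%, for the E box 6.12% and 6.34%, and for AP-1 6.12% and 6.57%. GC content was 75.6% for the HDAC7 run, against a median of 66.4% for the 49 starts and 58.0% for all promoters. A match is a description of the letters only.

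Before any comparison, the genes differed widely in level. HDAC1, a class I deacetylase found in the SIN3, NuRD and CoREST complexes, was the highest per length in the vector libraries, at 602 ± 35.7 scaled reads per kb (SD, n = 3). BRD2, a BET protein that binds acetylated histone H4, followed at 457 ± 29.1, and KAT2A, the GCN5 acetyltransferase of the SAGA and ATAC complexes, at 390.1 ± 28.3. SIRT1 was next at 261 ± 28.4, followed by HDAC3 at 230.1 ± 26.9 and HAT1 at 228 ± 30.9, which differed by less than their SDs. The order from HDAC1 through BRD2 to KAT2A to SIRT1 was separated by more than the SDs of the neighbours. At the low end were HDAC9 at 18.8 ± 1.81 scaled reads per kb, SIRT4 at 14.2 ± 7.15, KAT6B at 12.7 ± 2.01 and HDAC8 at 10.4 ± 1.73. HDAC10 lay far below the rest, at 0.924 ± 0.669. Gene length here is the length the table gives, which counts every annotated exon and so lowers the per-kb level of genes with many long transcripts.

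**Figure D1:**
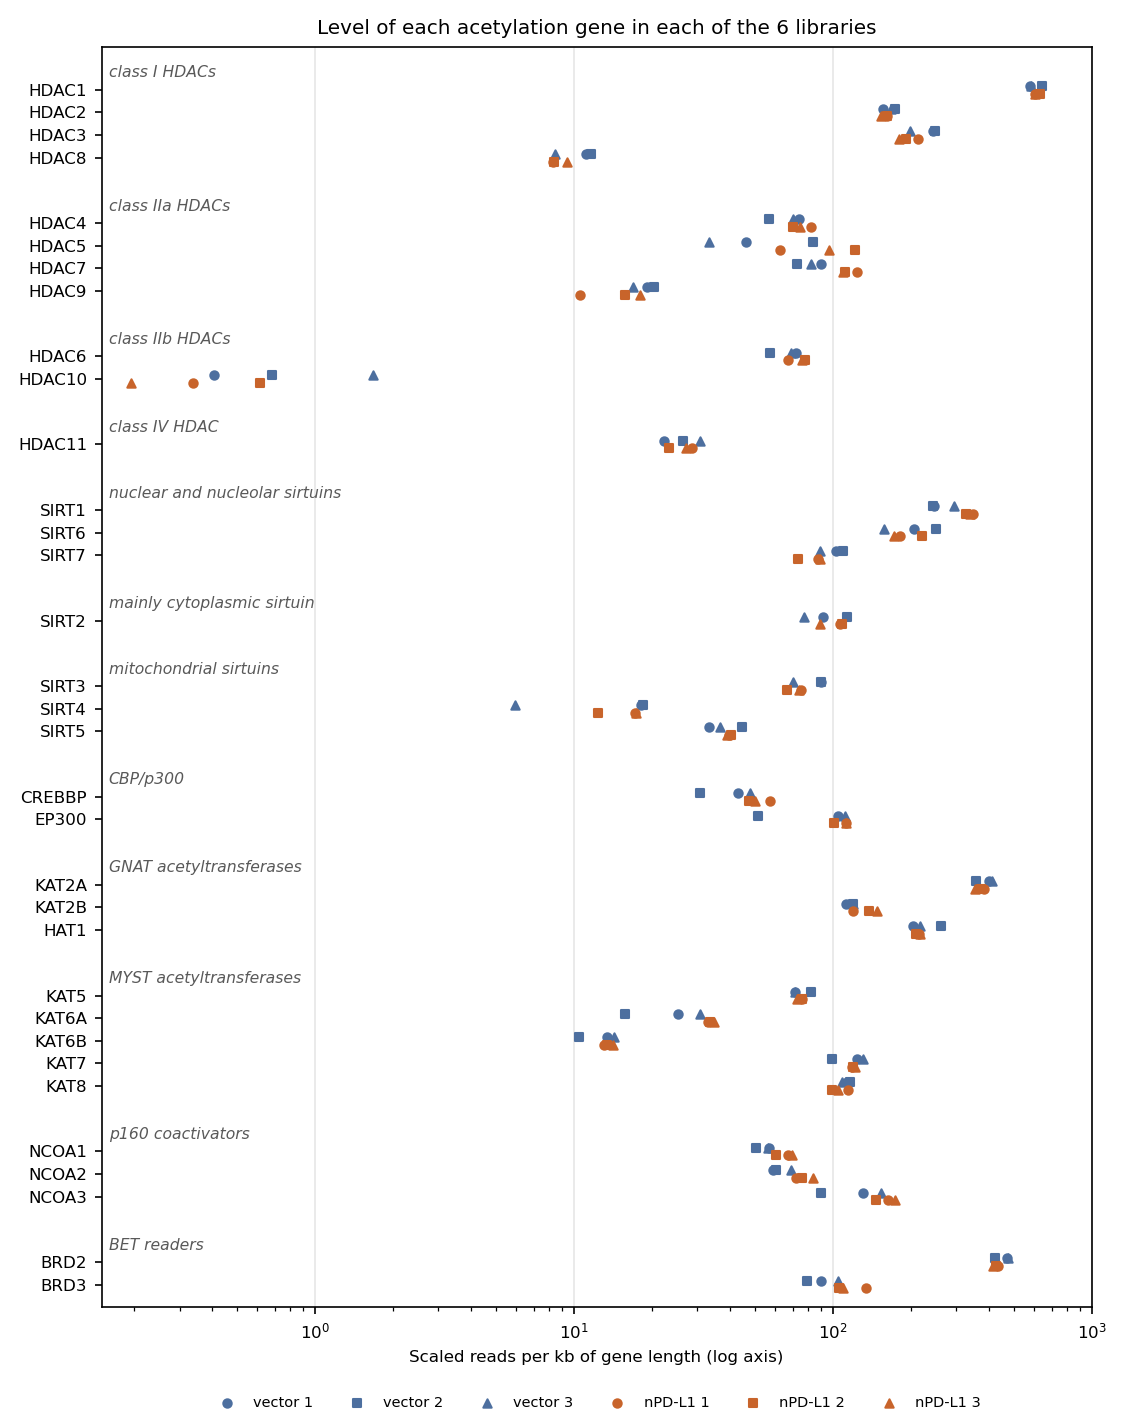
Level of the 33 genes in each library as scaled reads per kb of gene length on a log axis, grouped by class, with blue marks for the 3 vector libraries and orange marks for the 3 libraries labelled nPD-L1. HDAC1 is highest at about 602 per kb in the vector libraries, HDAC10 is the lowest, and for most genes the blue and orange marks overlap.

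In the comparison of nPD-L1 with vector, few of these genes moved beyond the spread between libraries. HDAC7 rose, and it was the only 1 of the 32 tested genes that passed the test, a share no higher than the 4.04% of all genes tested that were called higher. None was called lower, where the share over all genes was 0.922%, and 4.96% of all genes were called in either direction. At an unadjusted p under 0.05 there were 9 genes higher (HDAC5, HDAC7, SIRT1, CREBBP, KAT6A, NCOA1, NCOA2, NCOA3 and BRD3) and 0 lower, against 9.53% and 4.71% of all genes. By edgeR and DESeq2 on reads recovered from all 6 libraries, HDAC7 was likewise called (adjusted p = 0.0257 and 0.0043), and 0 genes were called lower. The groups did not overlap for 6 genes that were higher with nPD-L1 and for SIRT7, which was lower, while over all genes 12.0% were higher and 8.54% lower without overlap. The median log2 fold change was 0.085 over the 32 genes and -0.019 over all genes. Once the trend with gene length was removed from each library, these medians were -0.0077 and -0.066. The 95% interval lay within a 1.5-fold change in either direction for 21 of the 32 genes, and within a 2-fold change for all but HDAC5 and SIRT4. HDAC10, a polyamine deacetylase, was too low to test, with 2.02, 3.39 and 8.31 scaled reads in the vector libraries, against 1.68, 3.03 and 0.965 with nPD-L1, and its row overlaps MAPK12 on the same strand. In RNA from whole cultures, fewer cells of a kind and less RNA per cell cannot be told apart.

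**Figure D2:**
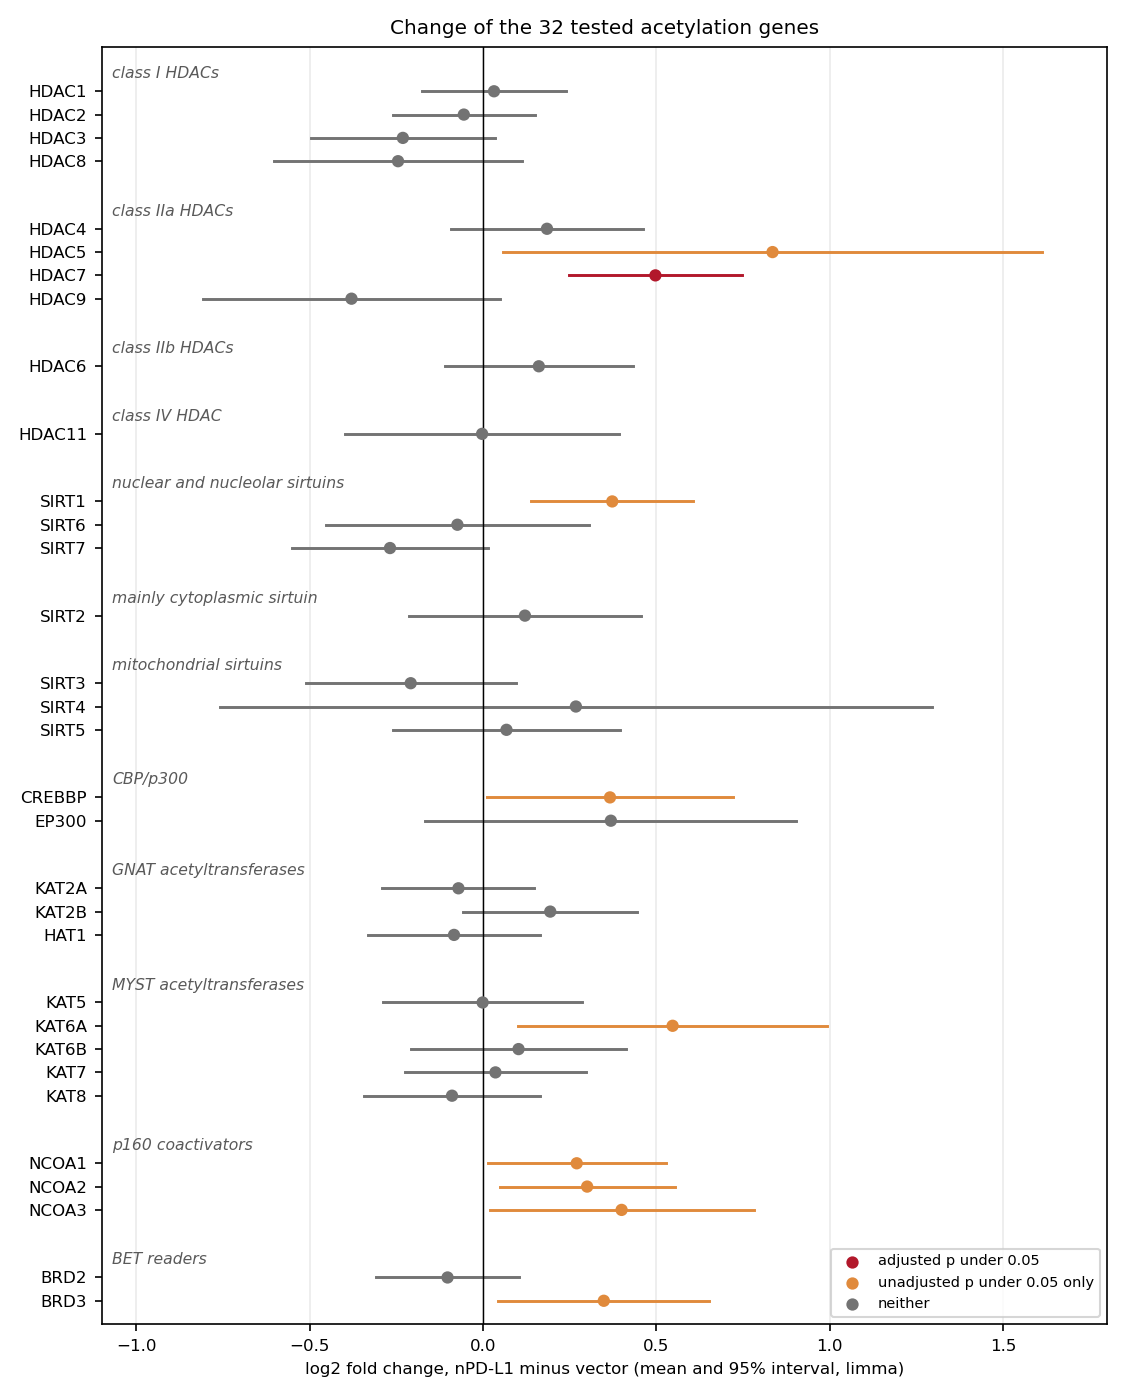
The log2 fold change of nPD-L1 over vector for the 32 tested genes with its 95% interval from limma, grouped by class. HDAC7 alone is drawn in red as called at 0.50, 8 further genes in orange have intervals just above 0, and the other 23 intervals cross 0.

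Class I deacetylases are the main catalytic subunits of nuclear corepressor complexes, and none of the 4 passed the test. HDAC1 and its close paralogue HDAC2 had log2 fold changes of 0.03 (95% interval -0.17 to 0.24) and -0.06 (-0.26 to 0.15), the narrowest intervals of the set together with BRD2. HDAC3, a deacetylase that works within a nuclear receptor corepressor complex, lay at 1129, 1145 and 922 scaled reads in the vector libraries and at 992, 887 and 837 with nPD-L1. Its log2 fold change was -0.23 (SE 0.12, adjusted p = 0.446), and the groups overlapped through vector 3. HDAC8, a deacetylase known for acting on cohesin, gave -0.24 (SE 0.16, adjusted p = 0.574).

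Class IIa deacetylases have little catalytic activity of their own and act as scaffolds that bring the HDAC3 complex to MEF2 factors. Their phosphorylation by SIK, PRKD and CaM kinases leads to binding by adaptor proteins of the YWHA family and export from the nucleus. HDAC7 (ENSG00000061273, chr12:47782722-47833132 in GRCh38, minus strand) lay at 891, 725 and 821 scaled reads in the vector libraries and at 1235, 1111 and 1089 in the libraries labelled nPD-L1. Each library labelled nPD-L1 was above each vector library, with the lowest value in vector 2. This gave a log2 fold change of 0.50 (SE 0.11, adjusted p = 0.0285), a fold of 1.41 with a 95% interval of 1.19 to 1.68. Without vector 2 the log2 fold change was 0.42 (adjusted p = 0.0159). The call was lost when the length trend was removed (0.37, adjusted p = 0.0709), and also without vector 1 (adjusted p = 0.0543) or without nPD-L1 1, nPD-L1 2 or nPD-L1 3 (adjusted p = 0.147, 0.104 and 0.0935). The HDAC7 row overlaps 32 bases of SLC48A1 on the other strand, and 4 lowly expressed noncoding genes.

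HDAC5, the class IIa member best known from muscle and neurons, had the highest log2 fold change of the set and the widest spread among the well expressed genes. Its values were 351, 640.4 and 253 scaled reads in the vector libraries, against 476, 927 and 734 with nPD-L1. Vector 2 was above nPD-L1 1, so the groups overlapped, and vector 2 was the highest of the vector libraries although HDAC5 is a gene of 7.62 kb. Its log2 fold change was 0.84 (SE 0.34, adjusted p = 0.304), and 1.20 without vector 2 (adjusted p = 0.104). With another library left out it went as low as 0.53. HDAC4, a regulator of chondrocyte and muscle genes, lay at 0.18 (SE 0.13, adjusted p = 0.585). HDAC9, which has a truncated splice form without the catalytic domain, had the lowest estimate of the set, -0.38 (SE 0.19, adjusted p = 0.435), with 324, 343 and 284 scaled reads against 178, 265 and 303. nPD-L1 1 alone was far below the vector libraries there. Summed over the class, class IIa reads were 1.28 times as high with nPD-L1 as with vector, a ratio given as a description. HDAC6, the cytoplasmic tubulin deacetylase of class IIb, and HDAC11, the sole class IV enzyme, gave 0.16 and -0.0024 on the same scale.

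Sirtuins link deacetylation to the NAD pool. SIRT1, which deacetylates histones, FOXO factors and PGC-1alpha in the liver, lay at 1122, 1108 and 1339 scaled reads in the vector libraries and at 1579, 1487 and 1541 with nPD-L1. The groups did not overlap, and the latter 3 libraries lay close together. The log2 fold change was 0.37 (SE 0.11, adjusted p = 0.0844), a fold of 1.29 with a 95% interval of 1.10 to 1.52, so it did not pass the test over all genes. Without vector 2 it was 0.32 (adjusted p = 0.0665), and without vector 3 it was 0.46 and passed (adjusted p = 0.0269).

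The other nuclear sirtuins pointed downward or lay near 0. SIRT7, the nucleolar sirtuin tied to ribosomal gene transcription, lay at 634, 673 and 551.8 scaled reads against 541, 451 and 551.8, with the highest nPD-L1 library just under the lowest vector library. The log2 fold change was -0.27 (SE 0.13, adjusted p = 0.388), and 3054 bases of its row overlap MAFG on the same strand, a gene with 521% of its signal. SIRT6, a chromatin deacetylase of telomeres and glycolytic genes, gave -0.07 (95% interval -0.45 to 0.31), and SIRT2, the mainly cytoplasmic sirtuin, gave 0.12 (-0.21 to 0.46). Among the mitochondrial sirtuins, SIRT3, the main deacetylase of that compartment, gave -0.21 (-0.51 to 0.09), SIRT5, a desuccinylase, gave 0.07 (-0.26 to 0.39), and SIRT4, with as few as 7 recovered reads in a library, gave 0.27 (-0.76 to 1.29). A change in SIRT4 was not detectable at this depth.

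CREBBP and EP300 encode CBP and p300, paralogous acetyltransferases that acetylate histone H3 at enhancers and many transcription factors. CREBBP lay at 668, 478 and 741 scaled reads in the vector libraries and at 884, 736 and 779 in the libraries labelled nPD-L1, with a log2 fold change of 0.37 (SE 0.16, adjusted p = 0.328). Vector 3 was above nPD-L1 2, so the groups overlapped. EP300 lay at 1306, 645 and 1393 against 1413, 1267 and 1412, with nearly the same estimate, 0.37 (SE 0.24, adjusted p = 0.571). Without vector 2 the log2 fold change of EP300 was 0.014, so that library carried nearly all of its difference, and that of CREBBP was 0.18.

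Of the MYST acetyltransferases, KAT6A had the highest estimate. KAT6A (MOZ), which acetylates histone H3 within a complex with BRPF1, lay at 612, 382 and 742 scaled reads in the vector libraries and at 798, 808 and 839 with nPD-L1. The groups did not overlap, and vector 2 was lowest by a wide margin. The log2 fold change was 0.55 (SE 0.20, adjusted p = 0.215), 0.27 without vector 2 (adjusted p = 0.198) and 0.75 without vector 3 (adjusted p = 0.0248). At 24.2 kb, KAT6A is among the longest of the genes. Its paralogue KAT6B, at 32.5 kb the longest, gave 0.10 (95% interval -0.21 to 0.41). KAT5, the Tip60 enzyme of the NuA4 complex, KAT7, the HBO1 enzyme of replication origins, and KAT8, the MOF enzyme that acetylates histone H4, gave -0.00088, 0.04 and -0.09. The span of KAT5 shares 5600 bases with that of RNASEH2C on the other strand, and reads from any shared exons cannot be told apart without strand. How much exon sequence the pair shares was not computed.

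Within the GNAT family, log2 fold changes were -0.07 for KAT2A (95% interval -0.29 to 0.15), 0.19 for its paralogue KAT2B (PCAF, -0.06 to 0.45) and -0.08 for HAT1 (-0.33 to 0.16), which acetylates newly made histone H4. HAT1 overlaps SLC25A12 on the other strand over 61235 bases.

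The p160 coactivators bind nuclear receptors and bring CBP and p300 to them, and the 3 genes lay on the same side. NCOA1 lay at 492, 435 and 485 scaled reads in the vector libraries and at 579, 523 and 602 in the libraries labelled nPD-L1. NCOA2 lay at 591, 608 and 691 against 724, 759.6 and 845. For these 2 genes the groups did not overlap. NCOA3, known as AIB1 for its amplification in breast cancer, lay at 1099, 760.1 and 1292 against 1374, 1238 and 1459, and overlapped through vector 3. The log2 fold changes were 0.27 for NCOA1 (SE 0.12, adjusted p = 0.314), 0.30 for NCOA2 (SE 0.11, adjusted p = 0.232) and 0.40 for NCOA3 (SE 0.17, adjusted p = 0.315), so none passed the test. Without vector 2 the estimates were 0.18 for NCOA3, 0.22 for NCOA1 and 0.28 for NCOA2.

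BET proteins read acetylated histones and bring the elongation machinery to promoters. BRD3 lay at 618, 548 and 720.2 scaled reads in the vector libraries and at 923, 727 and 751 in the libraries labelled nPD-L1, without overlap, and its log2 fold change was 0.35 (SE 0.14, adjusted p = 0.259). nPD-L1 1 was well above the other libraries, and nPD-L1 2 exceeded vector 3 only slightly. BRD3OS, a gene on the other strand that overlaps BRD3 over 4362 bases, had 56.0% of the signal of BRD3. BRD2 lay on the other side of 0, at -0.10 (SE 0.09, adjusted p = 0.693).

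**Figure D3:**
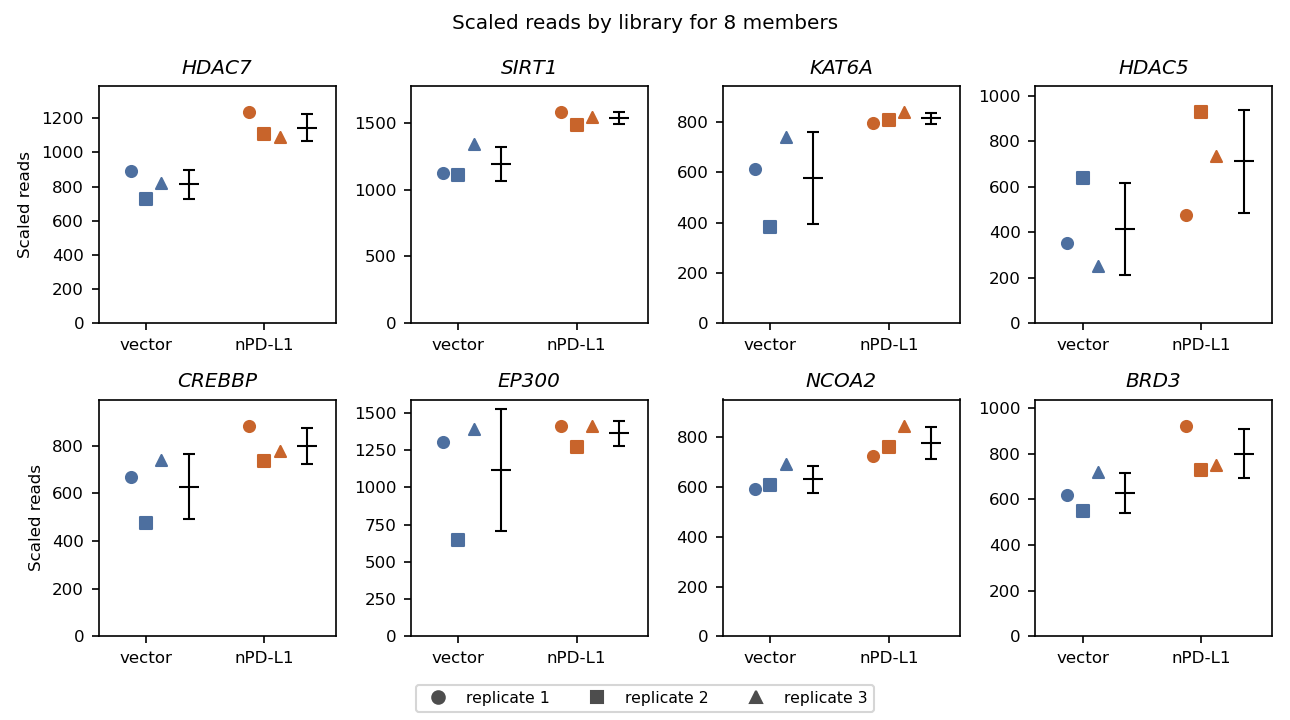
Scaled reads of HDAC7, SIRT1, KAT6A, HDAC5, CREBBP, EP300, NCOA2 and BRD3 by library, with the marker shape giving the replicate number and the black bar the mean ± SD of 3 libraries on axes that start at 0. Vector 2 (square) is lowest for HDAC7, KAT6A, CREBBP, EP300 and BRD3, and by a small margin for SIRT1. It is the highest of the vector libraries for HDAC5.

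Vector 2 touched many of these estimates. Among the 32 tested genes it was the lowest of the 6 libraries for 12 and the highest for 13. Of the 14 genes longer than 8 kb, 10 were lowest among the vector libraries in vector 2, against 4 of the 18 shorter genes. Across the 32 genes, which share the libraries and are not independent, Spearman's rho was -0.52 between gene length and the difference of vector 2 from the other vector libraries, and 0.23 between gene length and the log2 fold change. Over all genes the median log2 fold change was -0.14 under 2 kb and 0.11 over 10 kb. Of the 9 genes higher at an unadjusted p under 0.05, 8 had a smaller estimate without vector 2, HDAC5 being the exception. These 9 were picked in the fit that included vector 2, and the same count was not made for the other libraries. With the length trend removed from each library the call of HDAC7 was lost (adjusted p = 0.0709). The median log2 fold change of the 32 genes was then -0.0077, against -0.066 over all genes.

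**Figure D4:**
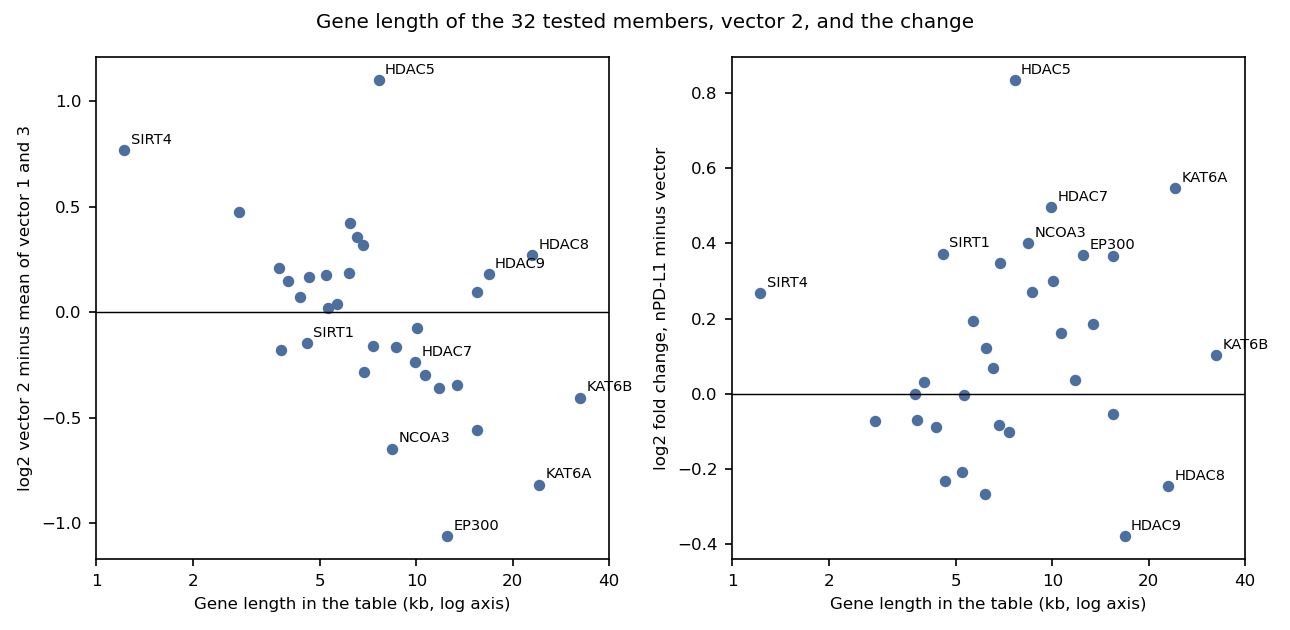
Gene length in kb on a log axis for the 32 tested genes against the log2 difference of vector 2 from the mean of vector 1 and vector 3 (left) and against the log2 fold change of nPD-L1 over vector (right), 1 point per gene. Long genes lie mostly under 0 at the left, with EP300 and KAT6A lowest and HDAC5 far above the other genes, and the spread at the right shows only a weak relation with length (rho 0.23).

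Among the genes whose products work with these enzymes, GATAD2B, BRMS1L, ZMYM2, KANSL3, PRKD3 and MEF2D rose and ING1 fell. Of 156 tested genes in 5 lists (corepressor subunits, acetyltransferase complex subunits, other acetyl-lysine readers, class IIa kinases with adaptors and MEF2 factors, and acetyl-CoA and NAD supply), 6 were called higher and 1 lower, close to the 4.04% and 0.922% of all genes. In the corepressor list 3 of 37 rose and 1 fell, and the list's median log2 fold change was 0.016. By edgeR and DESeq2 on 6 libraries 3 and 5 of these genes were called higher and 1 lower.

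GATAD2B, a subunit of the NuRD complex that holds HDAC1 and HDAC2, lay at 822, 681 and 832 scaled reads against 1539, 1393 and 1335, and rose by 0.87 on the log2 scale (SE 0.11, adjusted p = 0.00106). Its paralogue GATAD2A gave 0.05 (adjusted p = 0.898). BRMS1L, a SIN3 complex subunit, rose by 0.60 on that scale (SE 0.15, adjusted p = 0.0416), and ZMYM2, a zinc finger protein found with CoREST, rose by 0.48 (SE 0.11, adjusted p = 0.0275). ING1, the SIN3 subunit that binds methylated histone H3, lay at 350.2, 353 and 341 scaled reads against 249.6, 229.6 and 226, and had a log2 fold change of -0.57 (SE 0.12, adjusted p = 0.0242). Its paralogue ING2 gave -0.55 (SE 0.16) and did not pass (adjusted p = 0.0993). GATAD2B kept its call whichever library was left out. The call of BRMS1L was lost without vector 1, vector 3, nPD-L1 1, nPD-L1 2 or nPD-L1 3 (adjusted p = 0.167, 0.0870, 0.0857, 0.157 and 0.224). ZMYM2 was no longer called without vector 1, nPD-L1 1 or nPD-L1 3 (adjusted p = 0.124, 0.126 and 0.164). For ING1 the same held without vector 1, nPD-L1 1, nPD-L1 2 or nPD-L1 3 (adjusted p = 0.117, 0.0633, 0.127 and 0.124).

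For comparison, limma called 4.04% of all genes higher and 0.922% lower, with a median log2 fold change of -0.019. At an unadjusted p under 0.05 these shares were 9.53% and 4.71%. edgeR and DESeq2 on 6 libraries called 618 of 14960 and 758 of 15076 genes higher. Among acetyltransferase complex subunits 1 of 53 rose and 0 fell in limma, with a median of 0.036, and edgeR and DESeq2 on 6 libraries called 1 and 2 higher and 0 lower. That gene was KANSL3, a subunit of the NSL complex of KAT8, at 946, 734 and 977 scaled reads against 1551, 1292 and 1394 (log2 fold change 0.68, SE 0.13, adjusted p = 0.0111), while KAT8 itself gave -0.09. Of the other bromodomain and YEATS readers 0 of 24 were called in limma, with 3 higher and 0 lower at an unadjusted p under 0.05 and a median of 0.12, and edgeR and DESeq2 on 6 libraries called 0. Of the kinases, adaptors and MEF2 factors that act on class IIa deacetylases, 2 of 22 rose and 0 fell in limma, with a median of 0.028, and edgeR and DESeq2 on 6 libraries also called 2 higher and 0 lower. MEF2D, a transcription factor held inactive by class IIa deacetylases, lay at 1656, 1621 and 1579 scaled reads against 2285, 2463 and 2334, and rose by 0.54 on the log2 scale (SE 0.09, adjusted p = 0.00489). PRKD3, a kinase of the protein kinase D family that phosphorylates class IIa deacetylases, lay at 871, 671 and 907 against 1242, 1209 and 1406, and rose by 0.66 on the log2 scale (SE 0.13, adjusted p = 0.0134). Without nPD-L1 1 or nPD-L1 3, KANSL3 (adjusted p = 0.0845 and 0.0643) and PRKD3 (adjusted p = 0.0669 and 0.0981) were not called, while MEF2D was called whichever library was left out. Of the genes for acetyl-CoA and NAD supply 0 of 20 were called in limma, with 2 higher and 0 lower at an unadjusted p under 0.05 and a median of -0.050, while edgeR and DESeq2 on 6 libraries each called 1 higher and 0 lower. ACLY, which makes acetyl-CoA from citrate, came closest, at 8354, 8706 and 8582 scaled reads against 10473, 11958 and 11226 (log2 fold change 0.39, SE 0.10, adjusted p = 0.0516).

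**Figure D5:**
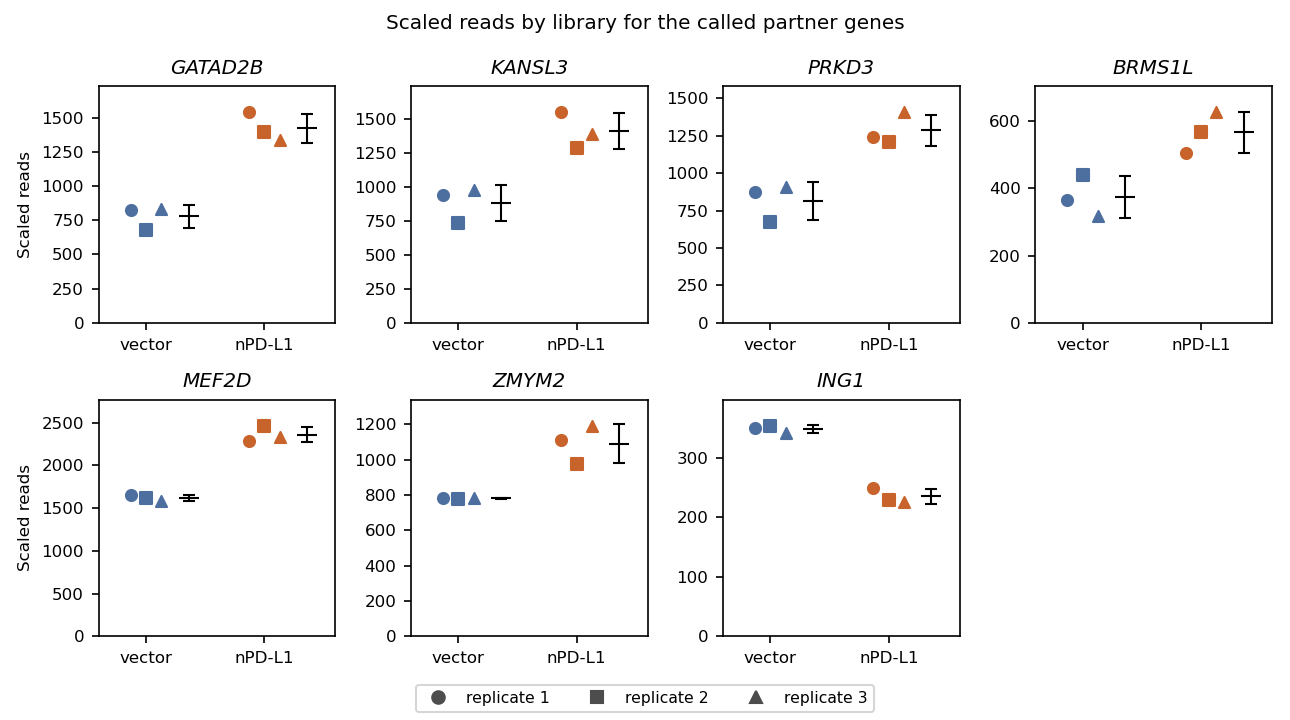
Scaled reads by library for the 7 partner genes that passed the test, ordered by log2 fold change, with the marker shape giving the replicate number and the black bar the mean ± SD of 3 libraries on axes that start at 0. The groups do not overlap in any panel, GATAD2B has the highest log2 fold change (681 to 832 against 1335 to 1539), and ING1 is the single gene that fell.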

How the data were processed

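The series holds RNA sequencing of 3 vector and 3 nPD-L1 libraries, grouped by their titles. Per the labels, the authors' processing notes name CASAVA, HISAT2 version 2.0.5 and hg38, and the library kit is not stated to keep strand. The deposited values are a signal, gene reads that were scaled by the size factor of their library, although the table calls them raw. All nonzero values of the 6 libraries (100%) are whole multiples of a step between 0.840 and 1.13, within 0.01, which gave the recovered reads. In vector 1 and nPD-L1 2 the step lies near 1, at 1.009 and 1.011. At a step of 1, 9.94% and 1.17% of their nonzero values would be whole. The table also holds the authors' group means of this signal, log2 fold changes and p-values, which the authors computed before deposit and which were not used.

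The members, gene lists and tests were chosen with earlier results of these data known. The 15076 genes that reached 10 in 3 or more libraries were fitted with limma 3.58.1 (R 4.3.3, trend and robust moderation, two-sided) on log2(value + 1), since an exact permutation of 3 against 3 cannot go below p = 0.1. edgeR 4.0.16 and DESeq2 1.42.0 on recovered reads were alternatives, also run on the 4 libraries with a step farther from 1. The scripts were tested on simulated data. Per-library values were given for members with adjusted p under 0.05 or groups that did not overlap and differed by 0.3 or more on the log2 scale. List genes were named when called, CREBBP and SIRT1 because the study drew them, and EP300, HDAC3, HDAC5, HDAC9, NCOA1, NCOA3, SIRT7, GATAD2A, ING2 and ACLY after their values were seen. 3 list symbols were left out (ATXN7 in 2 rows, BRDT and NMRK2 in none), and some genes are not reported here. Of the 33 members 20 overlap another gene of the table, 17 on the other strand. Overlaps were taken over the whole span of a gene from start to end, not over its exons.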

Additional observations from a re-analysis of the deposited data

How the results depend on the processing

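HDAC7 was called in 14 of 22 alternative fits, and GATAD2B in all 22. The count of members called higher (1 as reported) was 0 with the length trend removed. It was also 0 in each of limma, edgeR and DESeq2 on the 4 libraries with a step farther from 1 (chosen after seeing the data). The count was 9 at an unadjusted p under 0.05, and 0 with a log2 fold change of at least 1 asked as well. It was 0 to 3 when a library was left out. Without vector 1 or any nPD-L1 library no member was called, and without vector 3 HDAC7, SIRT1 and KAT6A were. For list genes called higher (6) the counts were 10 by DESeq2 on 6 libraries, 1, 1 and 3 by limma, edgeR and DESeq2 on 4 libraries, 27 at an unadjusted p, 0 with the fold asked as well, and 2 to 9 when a library was left out, the 2 without nPD-L1 1 and without nPD-L1 3. For those called lower (1) they were 0 by all 3 tools on 4 libraries, 5 at an unadjusted p, 0 with the fold asked as well, and 0 to 1 when a library was left out, the 0 without vector 1 or any nPD-L1 library. Fewer libraries also mean fewer degrees of freedom. The calls over all genes also moved, from 609 higher and 139 lower of 15076 as reported. They were 574 and 182 with the length trend removed, and 758 and 202 by DESeq2 on 6 libraries. At an unadjusted p they were 1436 and 710. On 4 libraries limma, edgeR and DESeq2 called 241, 229 and 333 of all genes higher and 52, 46 and 85 lower. When a library was left out, 331 to 791 of all genes were called higher and 76 to 242 lower. The members' median (0.085) was 0.0595 with upper-quartile factors and -0.0077 with the length trend removed. Over all genes the median was -0.019 as reported, -0.044 with upper-quartile factors and -0.066 with the length trend removed. On 4 libraries the members' median was 0.0611 by edgeR and 0.055 by DESeq2. It was 0.069 to 0.094 when a library was left out.

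Whether the replicate numbers pair the libraries cannot be told from these values. Same-numbered libraries correlated at -0.013, 0.229 and 0.131. Vector 2 and vector 3 each correlated best with the nPD-L1 library of the same number, while vector 1 correlated best with nPD-L1 3 (0.074). With the replicate number as a block 5 members were called higher (HDAC5, HDAC7, SIRT1, KAT6A and NCOA3) and 17 list genes, and with block and length correction together 3 members (HDAC7, SIRT1 and KAT6A), with a member median of -0.0077. Over all genes the block moved the calls from 609 higher and 139 lower to 927 and 258.

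10 members, with log2 fold changes from -0.083 for HAT1 to 0.12 for SIRT2 and 0.27 for SIRT4, changed sign in 30 fits, all at an adjusted p of 0.597 or more, and the cause was not tested. With the length trend removed, without or with the block, the log2 fold changes were -0.0026 for HDAC1, -0.013 for SIRT5, -0.057 for KAT6B and -0.10 for KAT7. On 4 libraries limma, edgeR and DESeq2 gave -0.016, -0.011 and -0.017 for HDAC1 and -0.042, -0.042 and -0.048 for SIRT5. With trimmed mean factors and by edgeR on 6 libraries they were 0.0075 and 0.0029 for HDAC11 and 0.0091 and 0.0073 for KAT5. When a library was left out they ranged from -0.12 to 0.11 for HDAC11, -0.25 to 0.084 for SIRT6, -0.012 to 0.26 for SIRT2, -0.23 to 0.52 for SIRT4, -0.028 to 0.19 for SIRT5, -0.16 to 0.023 for HAT1, -0.037 to 0.069 for KAT5, -0.032 to 0.19 for KAT6B and -0.084 to 0.12 for KAT7.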
